A study of Mus musculus with 24 samples.

Results

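H3K4me3 was examined at genes that encode H3K4 demethylases in a cultured mouse line, C127, labelled as mammary epithelial. The genes were the 5 listed H3K4 demethylase genes Kdm1a, Kdm1b, Kdm5a, Kdm5b and Kdm5c, out of 21755 protein-coding genes on the 19 autosomes and X, and they were listed by function, not by a measured value. For each, the peaks within 250 bp of any GENCODE vM21 basic transcription start site (TSS) were taken, together with any peak elsewhere in the gene. The series held 24 samples in 12 groups, and the measurement used was 1 list of 13451 H3K4me3 peaks found in all of 3 ChIP replicates of C127 cells, for which the labels name no construct or drug, called against a matched control. The list gives the position of each peak and no height. No replicate error can therefore be given, the depth behind them is unknown, and no test between genes was run. The 21 samples of the other groups were not analysed here.

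Methyl groups on lysine 4 of histone H3 are taken off by enzymes of separate chemistries. KDM1A (LSD1) and KDM1B (LSD2) are flavin-dependent amine oxidases that act on the mono- and dimethylated lysine and cannot attack the trimethylated one. The KDM5 proteins are iron-dependent JmjC enzymes that act on the tri- and dimethylated lysine, and so reverse the product of the SET1 and MLL methyltransferases at promoters. Each of these genes is itself transcribed from a promoter where the mark can be placed.

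The 5 genes lie on 5 chromosomes and share no peak with each other. The RefSeq promoter sequences of 4 of them are shown because their content of CpG, the dinucleotide that CXXC domain proteins such as CFP1 bind when it is not methylated, differed widely under peaks of similar width. Each runs 5′ to 3′ on the strand of its gene, from 250 bases before the RefSeq start to 50 bases from it onwards (GRCm38.p6), with every CpG in capitals. They lie at chr4:136602674-136602973 (minus strand) for Kdm1a, chr13:47043249-47043548 (plus) for Kdm1b, chr1:134559928-134560227 (plus) for Kdm5b and chrX:152232977-152233276 (plus) for Kdm5c.
Kdm1a: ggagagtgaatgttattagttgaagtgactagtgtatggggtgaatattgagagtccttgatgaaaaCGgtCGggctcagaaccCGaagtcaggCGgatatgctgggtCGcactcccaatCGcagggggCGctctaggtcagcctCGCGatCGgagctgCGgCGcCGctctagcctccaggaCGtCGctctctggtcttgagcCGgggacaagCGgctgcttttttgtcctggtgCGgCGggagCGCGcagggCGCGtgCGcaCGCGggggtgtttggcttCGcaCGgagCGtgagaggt
Kdm1b: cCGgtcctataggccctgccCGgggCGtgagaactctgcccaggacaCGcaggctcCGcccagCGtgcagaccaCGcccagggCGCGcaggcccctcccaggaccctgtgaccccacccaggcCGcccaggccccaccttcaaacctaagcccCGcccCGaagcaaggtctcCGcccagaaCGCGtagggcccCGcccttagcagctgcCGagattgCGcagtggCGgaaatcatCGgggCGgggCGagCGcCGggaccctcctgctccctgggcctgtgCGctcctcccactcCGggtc
Kdm5b: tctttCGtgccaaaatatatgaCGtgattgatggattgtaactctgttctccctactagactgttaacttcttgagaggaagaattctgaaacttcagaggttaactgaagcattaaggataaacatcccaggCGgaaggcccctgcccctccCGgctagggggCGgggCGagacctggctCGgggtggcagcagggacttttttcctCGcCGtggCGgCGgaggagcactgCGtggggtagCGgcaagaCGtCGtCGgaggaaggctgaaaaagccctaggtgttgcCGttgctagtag
Kdm5c: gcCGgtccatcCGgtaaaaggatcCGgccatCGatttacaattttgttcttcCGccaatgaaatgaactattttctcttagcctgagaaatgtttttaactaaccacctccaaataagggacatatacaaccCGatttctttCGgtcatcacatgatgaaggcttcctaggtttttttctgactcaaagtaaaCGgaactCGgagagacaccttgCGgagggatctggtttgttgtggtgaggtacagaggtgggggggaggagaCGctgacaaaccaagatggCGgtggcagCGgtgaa
All 4 windows lay wholly inside the H3K4me3 peak of their gene. The Kdm1a window held 29 CpGs, more than 87.1% of the 32851 promoters of the same RefSeq table, and the Kdm1b window 26 (83.1%). The Kdm5b window held 17 (68.6%), and the Kdm5c window 13 (62.1%) at a GC content of 47% that was above only 28.4% of the promoters. Kdm5a was not matched in that table.

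All 5 genes carried H3K4me3 at their start (5 of 5, 100%, 95% Wilson interval 56.6 to 100%, counting error over genes only), against 49.4% of all protein-coding genes. All 5 had a CpG island within 250 bp of a TSS, as did 96.8% of protein-coding genes with a TSS peak, and among all genes with such an island promoter 70.2% had a peak. With 5 genes the count cannot be set apart from a share of this size. Every one of the 9 basic TSSs of the 5 genes lay inside the peak of its gene, so no basic TSS of these genes lay away from the mark. Among protein-coding genes with a TSS peak, every basic TSS lay inside the peak at 82.8% and within 250 bp of it at 84.1%.

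**Figure D1:**
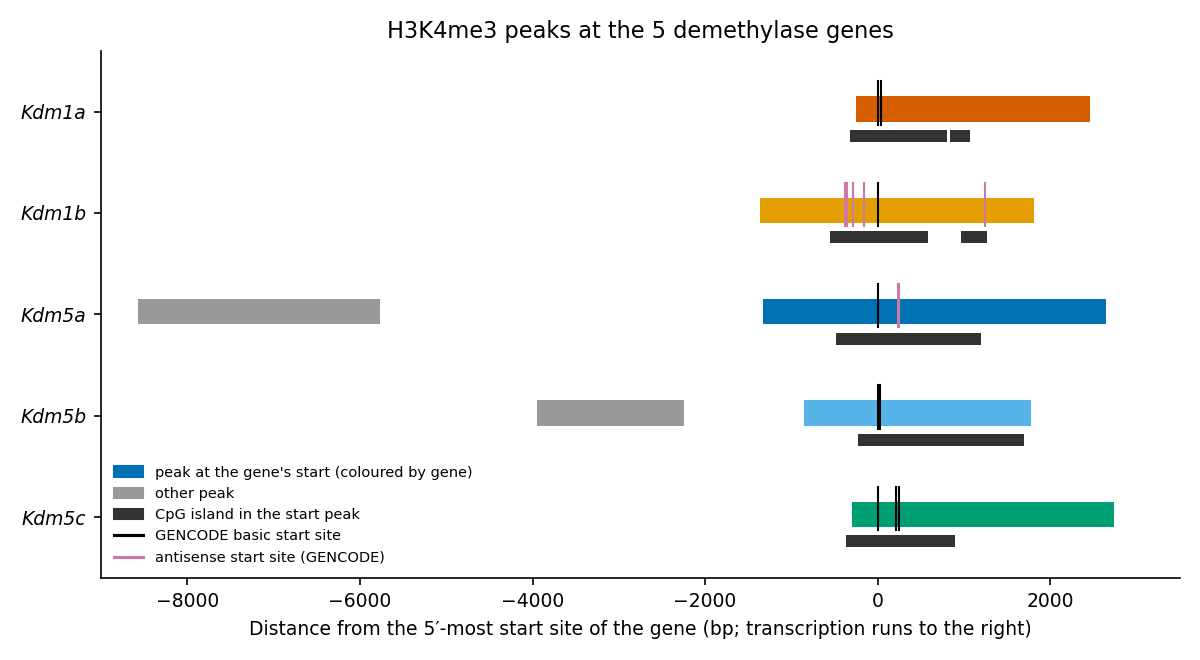
Map of the peaks at each gene, with the distance from the 5′-most basic start site in bp on the horizontal axis and transcription to the right. Coloured bars are the peaks at the start sites, grey bars other peaks, black bars CpG islands in the start-site peak, black vertical lines basic start sites and pink ones GENCODE start sites of the opposite strand. The Kdm1a and Kdm5c peaks end 257 and 299 bp upstream of the start site, while those of Kdm1b and Kdm5a reach 1363 and 1329 bp.

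The widths of the 5 peaks lay in the middle of the range of all genes. The order from wide to narrow was Kdm5a, Kdm1b, Kdm5c, Kdm1a and Kdm5b, with steps of 799, 136, 317 and 84 bp between neighbours. Without values per replicate it cannot be said which of these steps exceed the error of the peak edges. The median over the 5 genes was 3035 bp, against 3254 bp over the 10747 protein-coding genes with a TSS peak (quartiles 2410.5 and 4258 bp). Only Kdm5a lay above that median. Of the 5 genes, 4 have no divergent TSS, that is no TSS of the opposite strand within 2000 bp, and the 7329 protein-coding genes of that class with a TSS peak had a lower median of 3013 bp. Of the 4 genes of that class, Kdm5a and Kdm5c lay above this median and Kdm1a and Kdm5b below it. Kdm1b is not of that class, so the median of the 5 genes has no like counterpart there.

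Kdm1a, which encodes the LSD1 subunit of CoREST complexes, had a TSS peak 2718 bp wide (chromosome 4, 136600263 to 136602980, mm10), wider than that of 33.9% of the genes with a TSS peak. Both of its TSSs (136602723 and 136602687, minus strand) lay close to one edge. The peak reached 257 bp upstream and 2460 bp downstream of the first of them, so the downstream side was 9.57 times as long. The upstream extent was above that of 9.58% of genes only, and the difference between the sides above that of 83.1%. The peak stopped inside its CpG island on the upstream side, 62 bp short of the end of an island of 1128 bp with 121 CpGs, whose ratio of CpGs observed to those expected from base content was 0.974. Downstream it ran on for 1652 bp beyond this island and ended 1969 bp into the first intron.

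Kdm1b, whose product LSD2 is known for its role in setting up maternal DNA methylation imprints in mouse oocytes, had a TSS peak 3171 bp wide (chromosome 13, 47042136 to 47045306). It was the only one of the 5 with a divergent partner by basic TSSs, as 31.8% of protein-coding genes with a TSS peak had. The partner was Tpmt, the gene of thiopurine methyltransferase, with basic TSSs 289 and 375 bp away in the same peak. Measured from Kdm1b the peak reached 1363 bp upstream and 1807 bp downstream, and measured from Tpmt 2096 bp upstream and 1074 bp downstream. The 444 bp by which the Kdm1b side exceeded the other was the smallest such difference of the 5 genes. A single island of 1135 bp with 94 CpGs, which the peak covered whole, held the TSSs of both genes. The coding start of Kdm1b (47047916) lay beyond the peak, which ended 1636 bp into the first intron, whereas the peaks of the other 4 genes covered their coding starts.

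Kdm5a, first isolated as a binding protein of the retinoblastoma protein (RBP2), had the widest of the 5 peaks, 3970 bp on chromosome 6 (120362795 to 120366764), at the 69.1st percentile. It reached 1329 bp upstream and 2640 bp downstream of the TSS at 120364124. It covered exons 1 and 2 whole and ended 117 bp into intron 2, the only peak of the 5 to pass exon 2. The island at this TSS was long, 1680 bp with 121 CpGs, above that of 89.9% of 10398 genes with an island and a peak at the start (median 1024 bp). The neighbouring gene Ccdc77, which encodes a coiled-coil protein, is transcribed in the opposite direction. Its basic TSSs had a separate peak of 2812 bp (120355550 to 120358361), 4433 bp upstream of the Kdm5a peak. Transcripts of Ccdc77 outside the basic set start inside the Kdm5a gene, 232 and 250 bp past its TSS and under the Kdm5a peak. With these counted, Kdm5a would also be a promoter with starts on both strands.

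Kdm5b, known as PLU-1 from its high expression in human breast cancer, had the narrowest of the 5 peaks and the longest CpG island. Its peak of 2634 bp on chromosome 1 (134559317 to 134561950) lay at the 31.3rd percentile of width and reached 854 bp upstream and 1779 bp downstream of the TSS at 134560171. It held 176 CpGs, or 66.8 per kb, a density above that of 96.4% of genes with a TSS peak, against a median of 34.0 per kb. Its GC content of 61.2% was above that of 96.6%. The island of 1925 bp with 166 CpGs was longer than 94.5% of the islands at genes with a peak and made up 73.1% of the peak, compared with 39.0% to 47.9% at the other 4 genes. The downstream edge of the peak lay 80 bp beyond the end of the island. At Kdm1a, Kdm1b, Kdm5a and Kdm5c it lay 1227 to 1843 bp beyond the last start-site island. The Kdm1a and Kdm1b peaks each held a further island away from the TSS, beyond which the edge lay 1388 and 539 bp. With the stricter island definition the Kdm5b edge was 47 bp short of the island end, and those of the other 4 genes 1031 to 1661 bp beyond it.

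A further peak lay upstream of Kdm5b. It spanned 1700 bp (134556226 to 134557925), ended 2246 bp before the TSS and was parted from the start-site peak by 1391 bp. No basic TSS of a coding or lncRNA gene lay within 250 bp of it. It held 80 CpGs, and islands made up 63.2% of it. Its width was above that of 73.6% of the 3411 peaks away from such TSSs (median 1136 bp). A next peak within 2000 bp upstream was found at 2.74% of protein-coding genes with a TSS peak. At the other 4 genes the next upstream peak was 4433 bp (Kdm5a) to 110984 bp (Kdm1b) away. If peaks within 2000 bp were merged, a setting chosen after seeing the data, the Kdm5b peak would be 5725 bp wide, the widest of the 5.

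Kdm5c, an X-linked gene known to escape X inactivation in mouse and human, had a peak of 3035 bp (152232721 to 152235755). On X, 33.6% of 948 protein-coding genes had a TSS peak, against 45.7% to 51.2% on the chromosomes of the other 4 genes. The 3 basic TSSs of Kdm5c lay at 152233020, 152233229 and 152233272. From the first the peak reached 299 bp upstream and 2735 bp downstream, the longest downstream extent of the 5 genes when measured so. From the second, that of the principal transcript, it reached 508 and 2526 bp, the latter less than the 2640 bp of Kdm5a. The peak held 96 CpGs, the fewest of the 5, and 31.6 per kb, just below the median of all genes. Its 2 islands were 415 bp with 28 CpGs and 840 bp with 52 CpGs, and the longer was above only 30.4% of those at genes with a peak. They nearly touched, as the first ended at 152233064 and the other began at 152233073. The stricter island definition gave a single island of 1039 bp with 55 CpGs at this start. Islands made up 39.0% of this peak, the lowest share of the 5, and its downstream edge was 52.1% of the way through the first intron.

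**Figure D2:**
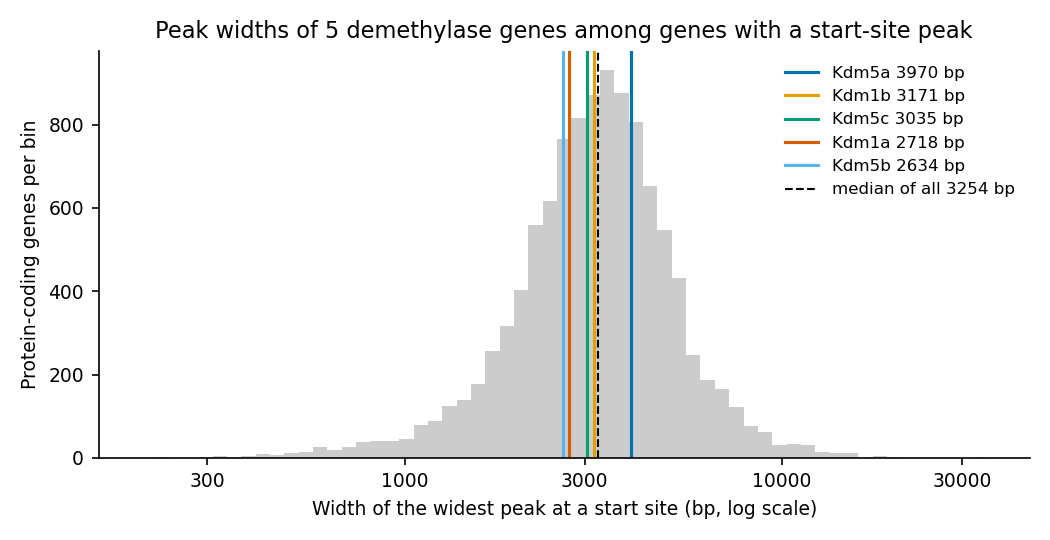
Number of protein-coding genes per bin of peak width, with the width of the widest peak at a start site in bp on a log scale (grey, n = 10747). Coloured lines are the 5 demethylase genes and the dashed line the median of 3254 bp, with Kdm5a (3970 bp) above it and the other 4 below.

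H3K4me3 extended further into the gene than away from it at all 5 genes, as it did at 83.5% of protein-coding genes with a TSS peak and at 92.7% of the 7329 without a divergent TSS. The downstream extents ran from 1779 bp at Kdm5b to 2735 bp at Kdm5c, with a median of 2460 bp. The downstream median was 2138 bp over all genes with a TSS peak and 2177 bp over those without a divergent TSS. The upstream extents ran from 257 bp at Kdm1a to 1363 bp at Kdm1b, with a median of 854 bp. The upstream median was 940 bp over all genes with a TSS peak and 752 bp over those without a divergent TSS. The 854 bp of the 5 genes lay below the first, and include Kdm1b, which has a divergent TSS. Of the genes other than Kdm1b, Kdm1a (257 bp) and Kdm5c (299 bp) lay below the 752 bp. Kdm5b (854 bp) and Kdm5a (1329 bp) lay above it. Measured from the 5′-most TSS, Kdm1a and Kdm5c were short upstream, with downstream extents at the 63.5th and 73.0th percentiles, against the 70.1st for Kdm5a. In the difference between the sides Kdm1a and Kdm5c lay at the 83.1st and 86.9th percentiles. Kdm5a and Kdm5b were near the middle, at the 57.2nd and 42.4th percentiles, and the shared peak of Kdm1b lay at the 26.4th. Among genes without a divergent TSS these percentiles were 80.1 for Kdm1a, 84.7 for Kdm5c, 49.1 for Kdm5a and 32.3 for Kdm5b.

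**Figure D3:**
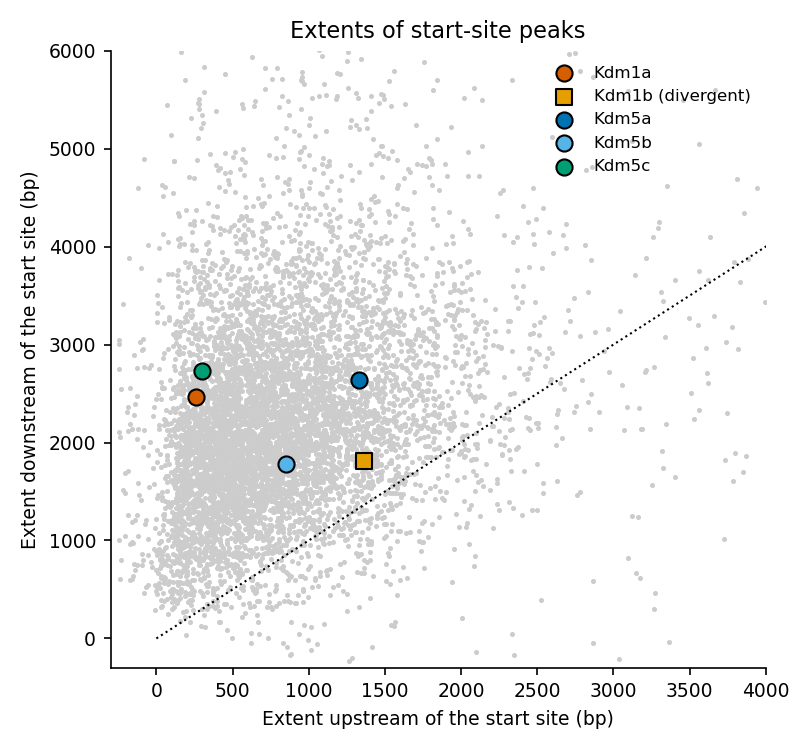
Extent of the start-site peak upstream (horizontal axis) and downstream (vertical axis) of the 5′-most start site in bp, for protein-coding genes without a divergent start site (grey, n = 7329, of which 245 lie beyond the axes) and the 5 demethylase genes. All 5 lie above the dotted line of equal extents, with Kdm1a (257 bp) and Kdm5c (299 bp) at the short end of the upstream axis.

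Beyond the start, the bodies of the 5 genes were free of peaks. The genes span 41516 bp (Kdm5c) to 80451 bp (Kdm5a), and the start-site peak took up 2.37% (Kdm5b) to 6.59% (Kdm5c) of that length. None of the 5 had a further peak, against 12.9% of protein-coding genes with a TSS peak and 21.9% of the 3496 of these that were at least as long as Kdm5c. In 5 genes a count of 0 is not set apart from these shares. Transcripts outside the basic set have 26 start sites in GENCODE, of which 1 coincides with the basic TSS of Kdm5a. Of the other 25, 6 lay within 250 bp of the start-site peak and 19 did not. The 19 were 8053 bp (Kdm5a) to 60850 bp (Kdm5b) away from any peak.

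Few of the sequence motifs searched for were shared among the 4 promoter windows printed above. Motifs were looked up on both strands in the 300 bases, as letters only, and no matches of different motifs overlapped. The GC box GGGCGG, bound by SP and KLF factors, occurred 6 times in the Kdm1b window and once in that of Kdm5b, with no match in those of Kdm1a and Kdm5c, and 35.7% of all promoters held it. CCAAT, the NF-Y box, occurred once each at Kdm1a and Kdm5c (37.4% of promoters). ATGGCGG, the core of the YY1 motif, occurred once, at Kdm5c (4.05% of promoters), at base 281 of the window, after the principal start at base 253. TATAAA (13.6% of promoters), CACGTG (7.15%), TGACGTCA (1.79%), CCGGAAG (8.86%), GCATGCGC (2.71%) and TCGCGAGA (0.995%) had no match in the 4 windows.

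The opposing enzymes and the partner proteins of the demethylases were set beside the 5 genes. A TSS peak lay at each of the 6 genes that encode SET1 or MLL methyltransferases, and all 6 peaks were wider than any of the 5 at demethylase genes. All 6 had an island promoter, and 70.2% of genes with one had a peak. The gap was small. The widest demethylase peak (Kdm5a, 3970 bp) was 25 bp narrower than the narrowest methyltransferase peak (Setd1a, 3995 bp). The medians were 3035 bp for the demethylases and 4903.5 bp for the methyltransferases, of which Setd1b (11880 bp), Kmt2d (6888 bp) and Kmt2b (4983 bp) were widest. With peaks within 2000 bp merged the order did not hold, since the Kdm5b peak (5725 bp) then exceeded those of Setd1a, Kmt2a, Kmt2b and Kmt2c (3995 to 4983 bp), while merging within 500 or 1000 bp left it as it was. Without merging, the methyltransferase peaks reached 1264 (Setd1a) to 7907 bp (Setd1b) upstream, against 257 to 1363 bp at the demethylase genes. Downstream they reached 2249 (Kmt2c) to 3972 bp (Setd1b), against 1779 to 2735 bp. The downstream extents of Setd1a, Kmt2a and Kmt2c lay within the range of the demethylase genes. This is a description with no test.

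Among 23 other genes of the JmjC family, whose members include demethylases of other histone lysines, 21 had a TSS peak and 22 had an island promoter. A TSS peak was present at 49.4% of all protein-coding genes and at 70.2% of those with an island promoter. The median width of the 21 peaks was 3359 bp, against the 3254 bp of all protein-coding genes with a TSS peak. The widest were at Kdm6b (13197 bp), an H3K27 demethylase gene, Jmjd6 (6363 bp) and Phf2 (5601 bp). Kdm6b was the gene of this list without an island promoter. The genes without a TSS peak were the Y-linked Kdm5d and Uty, which both had an island promoter. Kdm5d is the remaining member of the KDM5 family, and the list held 0 peaks on Y.

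Partners of KDM1 proteins had a peak at 16 of 18 genes (median 4414.5 bp). The widest were Phf21a (6051 bp), which encodes the CoREST subunit that reads unmethylated H3K4, the CoREST gene Rcor3 (5583 bp) and Gse1 (5403 bp). The repressor genes Gfi1 and Gfi1b, known from blood cells, had none. Partners of KDM5 proteins had a peak at 16 of 16 genes (median 3103.5 bp), with Sin3a (8734 bp), a corepressor scaffold, Ehmt2 (7041 bp), an H3K9 methyltransferase gene, and Phf12 (4873 bp) widest. All genes of both lists had an island promoter, a class in which 70.2% had a peak. The median of the KDM1 partners lay above the 3254 bp of all genes with a TSS peak and that of the KDM5 partners below it.

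**Figure D4:**
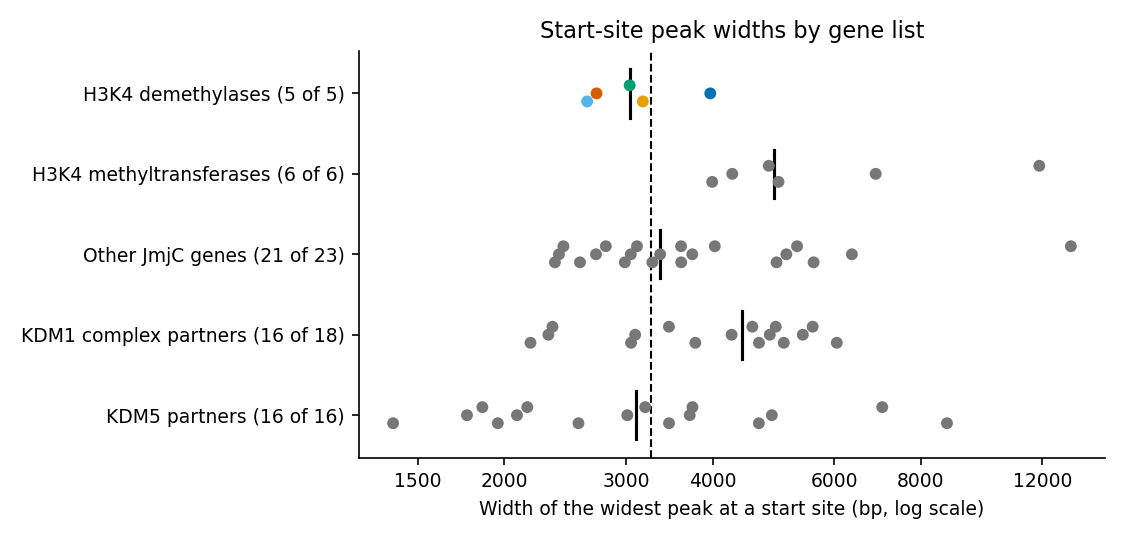
Width of the widest peak at a start site in bp (log scale) for each gene with a peak, by list, with the number with a peak of the number in the list. Black bars are list medians, the dashed line is the median of all protein-coding genes with a start-site peak (3254 bp), and in the top row the points are, from the left, Kdm5b, Kdm1a, Kdm5c, Kdm1b and Kdm5a. The demethylase peaks run from 2634 to 3970 bp and the methyltransferase peaks from 3995 to 11880 bp.

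The label of the line as mammary epithelial was checked against 14 epithelial and 13 mesenchymal marker genes. A TSS peak lay at 2 of the epithelial genes (Gata3 and Esr1) and at 12 of the mesenchymal ones, led by Fn1, Twist2 and Snai1, against 49.4% of all protein-coding genes and 70.2% of those with an island promoter. Island promoters were present at 13 of the epithelial and 12 of the mesenchymal genes. Cdh1, Cldn3, Cldn4 and Cldn7 were among the epithelial genes without a TSS peak, and Col1a1 was the mesenchymal one. Cdh1, Col1a1 and Krt14, an epithelial gene also without a TSS peak, each had 1 peak elsewhere in the gene. The bearing of this on the demethylase genes was not tested.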

How the data were processed

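ChIP-seq of H3K4me3 in 3 replicates of C127 cells was analysed through the deposited peak list. According to the methods of the study, the authors aligned reads to mm10 with bowtie2, discarded reads without a unique position and PCR duplicates (SAMtools), called peaks with MACS per replicate against the input, kept those overlapping in all replicates and merged peaks within 250 bp (the smallest gap in the list is 251 bp). Tool versions are not given in the sources used here. The deposited list has 3 columns (chromosome, start, end in bp) and no score or count, so depth per sample is unknown, edges are no sharper than the sonicated fragments allow, and starts in repeated sequence may have lost their reads.

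Starts were converted to 1-based positions, and peaks on all 20 chromosomes used fitted the GRCm38.p6 reference. TSSs came from GENCODE vM21 basic transcripts. The width is that of the widest peak within 250 bp of a TSS, extents run from the 5′-most TSS that the peak reached, and a percentile is the percent of 10747 protein-coding genes with a TSS peak that lie below. Islands are unions of 200-bp windows that reach a GC fraction of 0.5 and an observed to expected CpG ratio of 0.6 (180780 islands). No test was run, since the list has no replicates. Scripts were tested on simulated data. Members and lists were chosen with earlier results of these data known. The rule names the 5 genes, Kdm5d, genes with a TSS within 2000 bp of a member TSS or reached by a member peak, the host of any peak in a member gene body, and per list the 3 with the widest peak and up to 4 without one. Ccdc77 and Mgat4e (by basic TSSs), Setd1a, Krt14 and the peak upstream of Kdm5b were chosen after their values were seen. Computation used Python 3.11.15 with scipy 1.17.1, pandas 2.3.3 and numpy 2.4.6, and drawing matplotlib 3.10.9.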

Additional observations from a re-analysis of the deposited data

How the results depend on the processing

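Of 90 alternative values computed, 75 stayed within a tolerance and 15 moved. The tolerance was 10% for widths, extents and percentiles, 1.5 times for counts of genes, and the 95% Wilson interval for the share of all genes, so small counts had the widest one. All 5 genes kept a TSS peak with a TSS distance of 0 or 1000 bp, with 1 TSS per gene, with all GENCODE transcripts and, added after seeing the data, with RefSeq starts. The counts of 0 further peaks in the gene bodies and of 5 island promoters held under their alternatives, the latter with islands of 500 bp at a GC fraction of 0.55 and a ratio of 0.65. The share of all protein-coding genes with a TSS peak was 47.8% with 1 TSS per gene and 50.2% with all GENCODE transcripts, against 49.4% as reported. The median width percentile of the 5 genes was 43.6 as reported, 50.9 among genes without a divergent TSS and 48.2 with peaks in place of genes. The 50.9 also counts Kdm1b, which has a divergent TSS and was ranked at 55.1 among the genes without one. Extents moved by over 10% where the TSS was changed only upstream of Kdm1a (293 bp from its second TSS) and of Kdm5c (551 bp from its last TSS, 508 bp from the principal one). Merging peaks within 500 or 1000 bp changed none of the 5 widths. With 1 TSS per gene, 14 of 18 KDM1 partners and 20 of 23 other JmjC genes had a peak, against 16 and 21 as reported. With a TSS distance of 1000 bp, 3 epithelial and 13 mesenchymal markers had one, against 2 and 12 as reported. Leaving out a replicate was not possible, since the list holds only peaks shared by all of them, and no stricter peak threshold could be set without scores. No paired analysis was possible because the list gives no values per replicate.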

Other observations

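RefSeq, a second annotation, lists 18 start sites for the 5 genes, of which 14 had a peak within 250 bp and 4 did not. The 14 lie at or near the basic TSSs used to choose the peaks, so their count gives no independent support. The share over all RefSeq starts is not given here. The 4 without a peak belong to predicted models only, and every start of a curated RefSeq transcript of these genes had a peak. The Kdm5b start at 134562314 lay 364 bp beyond the downstream edge of the Kdm5b peak, and those at 134581339 and 134583115 lay 19389 and 21165 bp from it. The Kdm1b start at 47066362 lay 21056 bp from a peak.

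A RefSeq model of Mgat4e, the gene upstream of Kdm5b on the opposite strand, starts at 134561746, under the Kdm5b peak and 1575 bp past the Kdm5b TSS. The 1700-bp peak upstream of Kdm5b lies within the span of this model. Neither of the 2 basic TSSs of Mgat4e had a peak. For Ccdc77, RefSeq lists starts 44 and 245 bp past the Kdm5a TSS, also under the peak of that gene.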
